A study of Mus musculus with 4 samples.

Results

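Doxorubicin, a DNA-damaging drug, was applied to mouse embryonic fibroblasts (MEFs) that carry p53 (p53+/+, called WT) or lack it (p53-/-), and the transcripts of antiviral effectors of the interferon response were followed in the 4 resulting conditions. These conditions were untreated WT MEFs, WT MEFs given doxorubicin, untreated p53-/- MEFs and p53-/- MEFs given doxorubicin. The study looked for genes that need p53 for their response to the drug. Each condition was read on 1 one-color Agilent array and the arrays shared 1 slide, so a difference has no replicate check, and the place on the slide and the condition cannot be told apart. The dose and time of doxorubicin for the arrays, the strain and the number of embryos are not given in the sources used here. In such bulk RNA, fewer cells that express a gene and less RNA per cell cannot be told apart.

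The set held 43 genes, of which 40 were found under their gene name among the 31824 gene names of the array, on 50 probes. The members were chosen from interferon-stimulated genes with earlier ratios of these same arrays in view, so the ratios and counts below are a description with no test. Values are scaled signals, that is, the background-subtracted signal of a probe as a percentage of the 75th percentile of its array, and log2 ratios of these between arrays. A gene was called measured on an array where the scanner program marked its probe as well above background. Of the 40 genes, 30 were measured on every array, 8 on some, and 2 (Oas3 and Epsti1) on none. The 3 genes without a matching name, Ifi27, Herc6 and Trim30a, are described at the end through the accession of the probe.

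Type I interferons are secreted when a cell senses viral or misplaced nucleic acid. They bind a receptor whose kinases JAK1 and TYK2 activate transcription factors, among them STAT2, which together with IRF9 act on the interferon-stimulated response element (ISRE) in the promoters of target genes. The products of these genes block steps of viral growth, from entry and RNA decay to translation and budding, and fibroblasts are a classical source and target of interferon.

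The label of the cells was checked first. The 12 fibroblast markers, among them the collagens Col1a1, Col1a2 and Col3a1, were well above background on every array. With doxorubicin, 5 of them in WT (10.4% of all measured genes) and 2 in p53-/- MEFs (6.89%) were at least 2-fold lower. Their levels also differed between genotypes. Without the drug, S100a4, Lum and Dcn were at least 2-fold lower in p53-/- than in WT MEFs and 0 were higher (4.77% of all genes were that far apart). With it, Pdgfra and Lum were at least 2-fold higher in p53-/- MEFs (11.9% of all genes) and 0 were lower. The Trp53 probe stood at a scaled signal of 59.2% in WT MEFs before and 189% after doxorubicin, but at 23.5% and 22.4% in p53-/- MEFs, and whether it lies in the deleted part of the gene is not given in the sources used here. The p53 target Cdkn1a was at 51.9% in untreated p53-/- MEFs against 1379.9% in untreated WT MEFs. It was higher with doxorubicin in both, 4.22-fold in WT and 4.70-fold in p53-/- MEFs. Mdm2, listed with it as a check on p53, was 3.99-fold higher with doxorubicin in WT and 1.38-fold in p53-/- MEFs. Of 14 leukocyte markers, 9 to 11 per array were well above background, their summed scaled signals ran from 1623% in doxorubicin-treated p53-/- MEFs to 2444% in doxorubicin-treated WT MEFs, and the B cell marker Cd79a was dim on all arrays. Most of each sum was the integrin gene Itgam, at 1170.3% to 1743%. The markers did not move together. Cd14, a monocyte marker that other cells also express, was 13.4-fold higher with doxorubicin in WT and 1.54-fold in p53-/- MEFs, while Aif1 was 1.60-fold higher in p53-/- and lower in WT MEFs (0.636-fold). The part of such cells in the results was not tested. The summed signal of 8 endothelial and epithelial markers was highest in doxorubicin-treated p53-/- MEFs, at 2001% against 817% to 1373% on the other arrays, mostly from the keratin gene Krt18, and its part was not tested either. The SD of log2 signals between repeat spots of 253 probes was 0.08, equivalent to 0.11 for a ratio of 2 arrays and to 0.16 where 2 ratios are subtracted, and covers spots only.

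Without doxorubicin, the effector genes that could be measured had similar signals in both genotypes, as did most genes measured on the array. Of the 30 genes measured on both untreated arrays, 0 were at least 2-fold apart, where 4.77% of all measured genes were. Within 1.5-fold lay 24 of the 30, and 14303 of all 17318 measured genes. The median log2 ratio of p53-/- over WT MEFs was -0.03 for the 30 genes, beside -0.00 for all genes. The furthest apart were Oasl2, an OAS-like protein, at 0.93, and the ubiquitin ligase Trim21 at -0.90. Of genes dim on 1 of these arrays, Ifit1 was at least 2.58-fold and Mx2 at least 1.85-fold higher in p53-/- MEFs, and Oas1g at least 2.79-fold lower. Against the brightest negative control spot, the bound of Ifit1 was 1.39-fold and the others gave none.

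With doxorubicin, most of them were brighter in p53-/- than in WT MEFs. In WT MEFs, 16 of 30 measured genes were at least 2-fold higher after doxorubicin (11.0% of all measured genes) and 0 were at least 2-fold lower (10.4% of all genes), with a median log2 ratio of 1.21. In p53-/- MEFs, 28 of 32 were at least 2-fold higher (9.24% of all genes) and 0 lower (6.89% of all genes), with a median of 2.68. The median of all genes was 0.01 in WT and 0.00 in p53-/- MEFs. Between the treated arrays, 24 of 36 genes were at least 2-fold higher in p53-/- than in WT MEFs (11.9% of all genes), with a median of 1.86. The difference of the log2 ratios, p53-/- minus WT, was at least 1 for 22 of the 30 genes measured on all arrays (9.86% of all genes) and above 0 for 27, with a median of 1.45. These shares follow from the choice of the genes and nothing is read from them. The single genes just inside and just outside the 2-fold limit were Ifit3 (2.21-fold) and Isg20 (1.92-fold) in WT MEFs, and Ifit2 (2.41-fold) and Oas1b (1.96-fold) in p53-/- MEFs. They were Bst2 (2.67-fold) and Trim25 (1.96-fold) between the treated genotypes, and Eif2ak2 (2.15-fold) and Ifi35 (1.45-fold) for the difference.

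**Figure D1:**
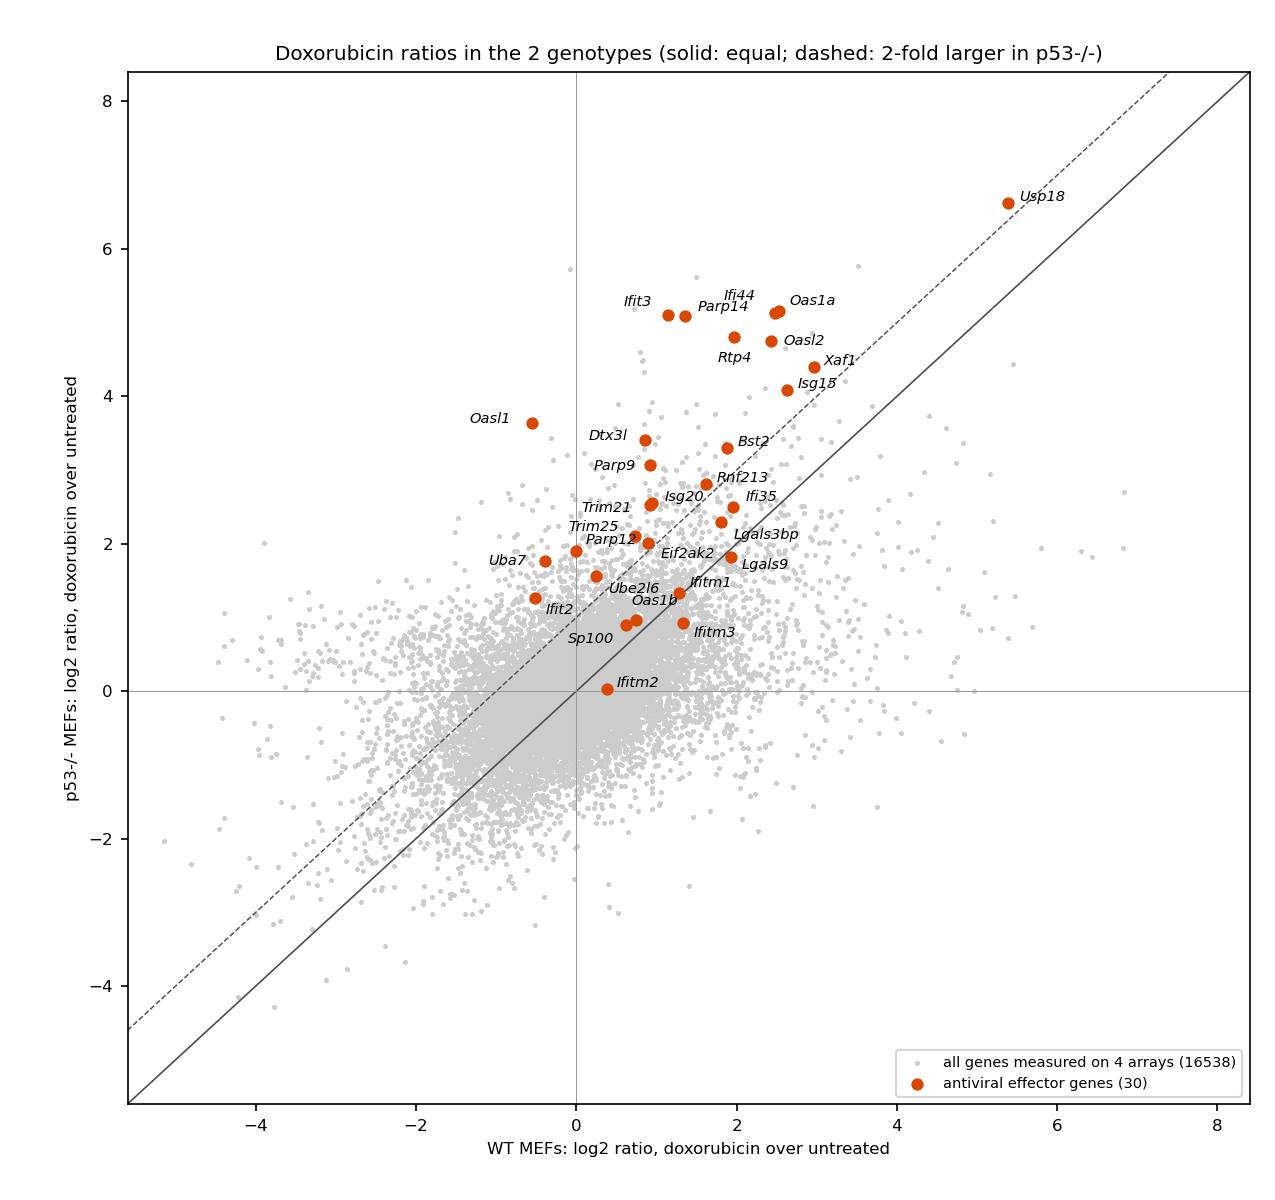
Log2 ratio of doxorubicin-treated over untreated MEFs in WT (x axis) and p53-/- cells (y axis) for 30 effector genes (orange, named) and all 16538 genes measured on 4 arrays (grey), with 1 array per condition and so no error bar. Of the 30 genes, 22 lie on or above the dashed line, where the p53-/- ratio is 2-fold larger, and 3 (Ifitm2, Ifitm3 and Lgals9) lie below the solid line of equal ratios.

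Among the 30 genes measured on every array, 4 patterns could be described. Of all measured genes, 11.0% in WT and 9.24% in p53-/- MEFs were at least 2-fold higher with doxorubicin. The share of all genes with each pattern was not counted, so nothing is read from the sizes of the patterns. At least 2-fold higher in both genotypes were 15 genes. Higher in p53-/- MEFs alone were 11, namely Ifit2, Oasl1, Eif2ak2, Uba7, Ube2l6, Trim25, Parp9, Dtx3l, Parp12, Trim21 and Isg20. Ifitm3 passed 2-fold in WT MEFs alone, and Oas1b, Ifitm2 and Sp100 in neither. By their dimmer probes, Isg20 passed 2-fold in both genotypes and Oas1b in p53-/- MEFs alone.

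The promoters were searched for the ISRE, the element through which the pathway acts on its targets. RefSeq windows of 300 bases (GRCm38.p6, 250 before and 50 after the start of transcription) existed for 33 of the 43 genes. The windows of Oas1b, Oas2, Usp18, Mx1, Mx2, Parp9, Parp14, Phf11, Ifi27 and Rtp4 were missing from the table. The letters GAAANNGAAA, searched on both strands with overlapping matches counted, were in the windows of 14 of the 33 genes (42.4%), where 3.99% of 27025 genes and 3.44% of 32851 windows hold them. The match lay before the start in 11 of them, and 9 genes had 2 or more in a single window, as did 0.225% of all windows. Stretches before the start of 8 genes are shown, with GAAANNGAAA or its complement in capitals, read 5′ to 3′ along the strand of the gene. The first 6 belong to genes at least 2-fold brighter in treated p53-/- than treated WT MEFs, and the last pair to genes that were not.
Isg15: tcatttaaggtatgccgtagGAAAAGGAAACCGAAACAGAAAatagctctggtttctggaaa
Ifit1: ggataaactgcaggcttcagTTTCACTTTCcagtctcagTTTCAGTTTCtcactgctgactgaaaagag
Ifit3: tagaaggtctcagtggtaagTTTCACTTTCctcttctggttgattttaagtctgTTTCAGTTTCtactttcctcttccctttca
Oas1a: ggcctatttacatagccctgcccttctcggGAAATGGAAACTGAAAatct
Bst2: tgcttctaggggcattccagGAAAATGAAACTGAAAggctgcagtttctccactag
Rsad2: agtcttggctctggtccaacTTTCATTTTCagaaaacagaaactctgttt
Ifitm2: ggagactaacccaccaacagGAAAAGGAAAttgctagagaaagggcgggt
Lgals9: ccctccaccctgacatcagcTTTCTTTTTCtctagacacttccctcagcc

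These stretches lie at chr4:156200855-156200916 (minus strand) for Isg15, chr19:34640765-34640833 (plus) for Ifit1, chr19:34583353-34583436 (plus) for Ifit3 and chr5:120907526-120907575 (minus) for Oas1a. Those of Bst2, Rsad2, Ifitm2 and Lgals9 lie at chr8:71537567-71537622, chr12:26456543-26456592, chr7:140955978-140956027 and chr11:78984950-78984999, all on the minus strand. The Isg15 stretch holds 3 overlapping copies, those of Ifit1, Ifit3, Oas1a and Bst2 hold 2, and the last 3 hold 1. The copies of Ifit1, Ifit3, Rsad2 and Lgals9 read in the opposite direction to the gene. The median difference of log2 ratios was 1.42 over the 9 measured genes with the letters in their window and 1.52 over the 16 without. The letters were thus found in genes with a large and with a small difference between genotypes, and their absence says only that they are not in this window.

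The IFIT proteins bind viral RNA through its 5′ end and hold back its translation. The 3 IFIT genes measured here were brightest in doxorubicin-treated p53-/- MEFs. Ifit3 (probe at chr19:34663105-34663164 of mm9, plus strand) stood at a scaled signal of 21.5% in WT MEFs without the drug and 47.5% with it, and at 16.6% and 572% in p53-/- MEFs. Its log2 ratio was 1.14 in WT and 5.11 in p53-/- MEFs, and the treated p53-/- array stood 12.0-fold above the treated WT array.

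Ifit2 (chr19:34650244-34650303) was at 22.3% and 15.6% in WT and at 25.2% and 60.8% in p53-/- MEFs without and with the drug. It was thus lower with doxorubicin in WT (log2 ratio -0.51) and higher in p53-/- MEFs (1.27), from similar untreated signals. Ifit1 was not well above background in untreated WT MEFs (2.81%) and reached 11.5% with doxorubicin, at least 4.09-fold higher. In p53-/- MEFs, it was at 7.26% and 88.3%, a ratio of 12.2-fold. The untreated signal there lay below the brightest negative control spot of that array (13.3%), so the size of this ratio rests on a dim signal.

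Enzymes that sense double-stranded RNA made up the next group. Active 2′-5′ oligoadenylate synthetases make a messenger that activates RNase L, and Eif2ak2 (PKR) stops translation by phosphorylating eIF2α. Of the 5 genes measured on all arrays, 2 in WT and 4 in p53-/- MEFs were at least 2-fold higher with doxorubicin. Oasl1 (chr5:115387861-115387920 of mm9, plus strand), which is known to restrain translation of Irf7, was at 20.6% and 14.0% in WT MEFs and at 20.1% and 251% in p53-/- MEFs. Its log2 ratios of -0.55 and 3.64 differed by 4.19, the largest difference of the 30 genes. Only the treated p53-/- array was high.

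Oasl2 was at 16.5% and 89.4% in WT and at 31.5% and 850.2% in p53-/- MEFs. Oas1a was at 15.2% and 88.0% in WT and at 15.0% and 534% in p53-/- MEFs, with log2 ratios of 2.53 and 5.16. Both were higher with the drug in both genotypes, and by more in p53-/- MEFs. The transcripts listed for the Oas1a probe include that of Oas1g, so this probe alone does not tell the paralogs apart. A second probe listed for Oas1a alone was dim without the drug and stood at 17.8% in treated WT and 109% in treated p53-/- MEFs.

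Eif2ak2 was at 47.9% and 89.2% in WT and at 60.9% and 245% in p53-/- MEFs, and passed 2-fold in the latter alone. Oas2 was not well above background without the drug in either genotype and was at 23.6% in treated WT and 138% in treated p53-/- MEFs, at least 8.04-fold and at least 44.7-fold higher. Set against the brightest negative control spot of the untreated array, these bounds were 4.52-fold and 10.4-fold. The probes of Oas1b disagreed. The brighter one, for which no RefSeq transcript is listed, was at 834% and 1394% in WT and at 947% and 1854% in p53-/- MEFs, under 2-fold in both. The dimmer one, listed for the Oas1b transcript, gave a log2 ratio of 0.97 for WT and 2.35 for p53-/- MEFs. Oas1g was well above background in untreated WT MEFs alone, at 8.60%, and was at least 3.53-fold lower with doxorubicin there, the 1 member that went below background. Its probe is also listed for Oas1a, and a probe listed for Oas1g alone was dim on all arrays. Oas3 was between 0.596% and 1.37% on all arrays, never well above background.

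ISG15 is a ubiquitin-like modifier that is loaded by the E1 enzyme Uba7, passed on by the E2 enzyme Ube2l6, joined to targets by ligases such as Herc6 and Trim25, and removed by the protease Usp18, which also damps the interferon receptor. All 5 measured genes of this system were at least 2-fold higher with doxorubicin in p53-/- MEFs, and 2 of them (Isg15 and Usp18) in WT MEFs. Isg15 (chr4:155573649-155573708 of mm9, minus strand) was at 172% and 1061% in WT and at 239% and 4056% in p53-/- MEFs. Its log2 ratios were 2.63 and 4.09, and a second probe gave 3.05 and 4.46. Usp18 was at 7.15% and 299.9% in WT and at 8.64% and 851% in p53-/- MEFs, log2 ratios of 5.39 and 6.62. These were the largest measured ratios of the set in either genotype. Its signal in untreated p53-/- MEFs lay below the brightest negative control spot of that array (13.3%), so the size of its ratio there rests on a dim signal.

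Uba7 (chr9:107886328-107886387 of mm9, plus strand) was at 139.8% and 106.5% in WT and at 93.7% and 318% in p53-/- MEFs. Its log2 ratio was -0.39 in WT and 1.76 in p53-/- MEFs. Ube2l6 was at 60.4% and 71.3% in WT and at 83.9% and 247% in p53-/- MEFs. Trim25, a ligase for the RNA sensor RIG-I too, was at 511% and 846% in WT and at 384% and 1660.4% in p53-/- MEFs. The E1 and E2 enzymes were thus within 1.5-fold of their untreated level in WT MEFs, whereas the modifier and the protease were not. With scaling to the array median, their WT log2 ratios were -0.67 (Uba7, then past 1.5-fold) and -0.04 (Ube2l6, from 0.24).

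**Figure D2:**
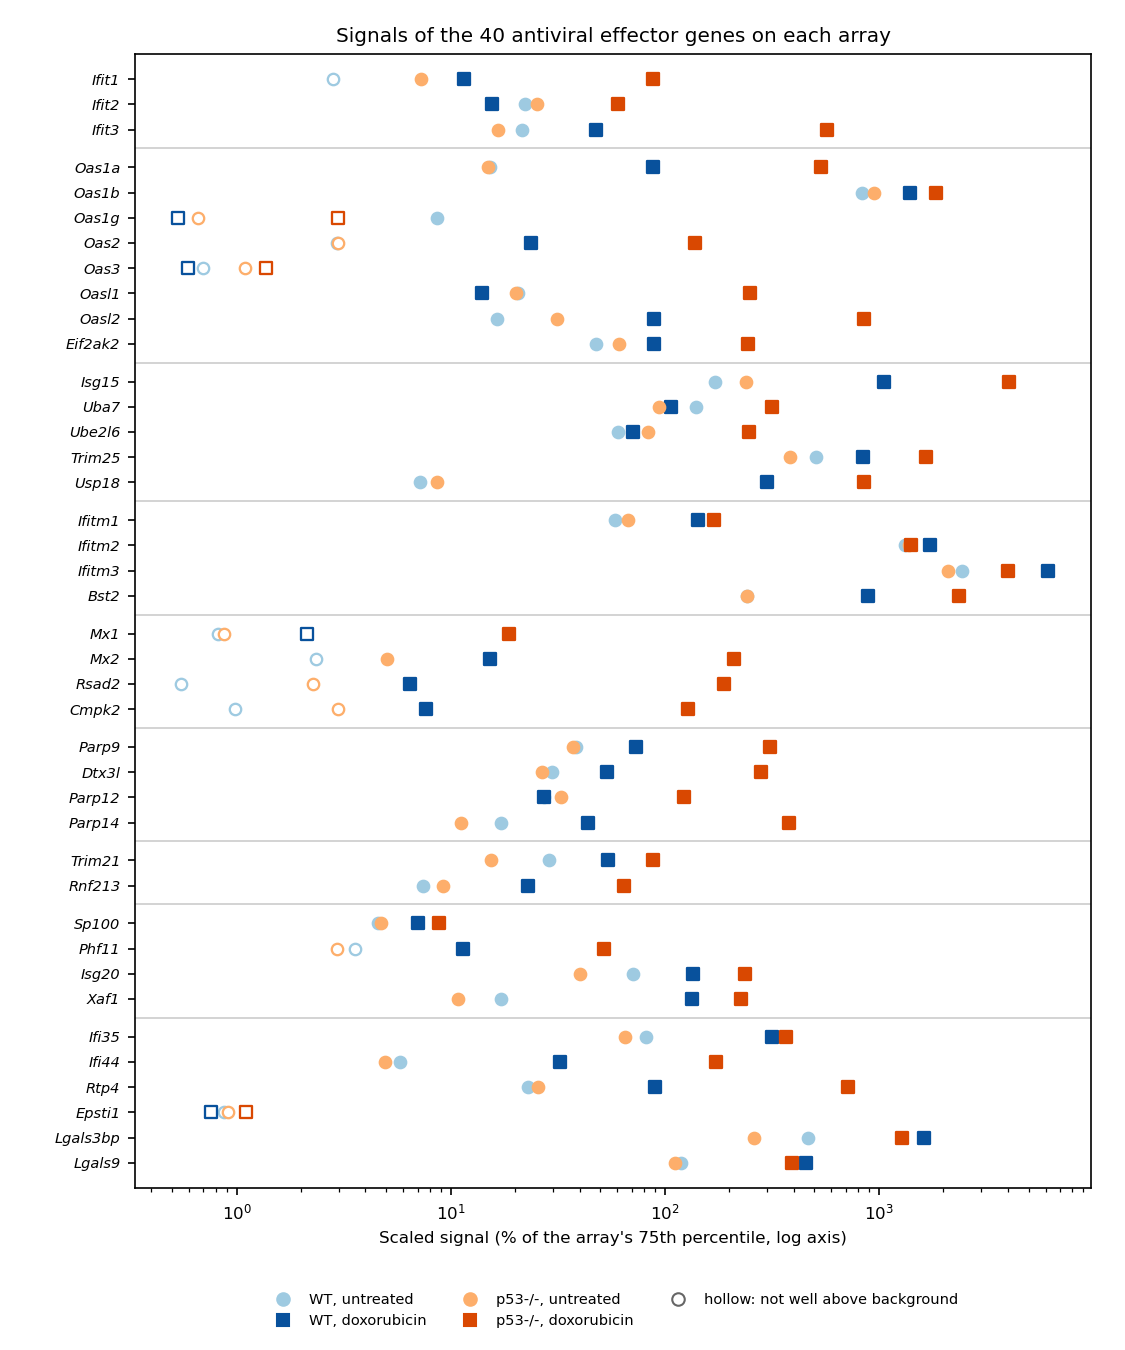
Scaled signal (percentage of the 75th percentile of the array, log axis) of 40 effector genes on the 4 arrays, grouped by role, with circles for untreated and squares for doxorubicin-treated MEFs and hollow symbols for probes not well above background; each symbol is 1 array, and distances between genes have no meaning. For most genes the circles lie together and the treated p53-/- square lies to the right of the treated WT square, as for Ifit3 (572% against 47.5%), while for Ifitm3 it lies to the left (3993% against 6145%).

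Proteins that act at membranes behaved differently from one another. The IFITM proteins hinder the fusion of viral and cellular membranes, and Bst2 (tetherin) holds budding virus at the cell surface. Ifitm3, spotted 10 times per array, was at 2449% ± 101 (SD over 10 spots) and 6146% ± 100.4 in WT and at 2095% ± 51.1 and 3994% ± 83.6 in p53-/- MEFs. It was higher with the drug in both genotypes, and the treated p53-/- array was below the treated WT array by a log2 ratio of -0.62, a difference between single arrays that the spread between spots does not test. Ifitm1 was at 58.8% and 143% in WT and at 67.5% and 170.2% in p53-/- MEFs, with log2 ratios of 1.29 and 1.33.

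Ifitm2 was at 1329% and 1726% in WT and at 1386% and 1411% in p53-/- MEFs, and its ratio in p53-/- MEFs (0.03) took the opposite sign with scaling to the array median (-0.27). In contrast to the IFITM genes, Bst2 was at 242% and 891% in WT and at 241% and 2377% in p53-/- MEFs, ratios of 3.68-fold and 9.84-fold. Over the 4 genes, the median difference of log2 ratios was -0.15, beside 1.45 for the 30 measured genes.

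The dynamin-like GTPases Mx1 and Mx2 trap viral nucleocapsids. Rsad2 (viperin) makes a chain-terminating nucleotide, and Cmpk2, its neighbor on chromosome 12, supplies the nucleotide pool. All 4 were dim in untreated WT MEFs, so that no ratio could be given there. Rsad2 was not well above background in either untreated condition and was at 6.48% in treated WT and 189.7% in treated p53-/- MEFs, a 29.3-fold difference between the treated arrays and the largest measured in the set. Against the untreated array, it was at least 2.37-fold higher in WT and at least 61.6-fold higher in p53-/- MEFs (1.24-fold and 14.3-fold when set against the brightest negative control spot of that array). Cmpk2 was likewise dim without the drug and was at 7.69% in treated WT and 129% in treated p53-/- MEFs.

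Mx2 was dim in untreated WT MEFs, at 15.3% in treated WT MEFs, and at 5.06% and 210.3% in p53-/- MEFs, a ratio of 41.6-fold in the latter. Its untreated p53-/- signal lay below the brightest negative control spot of that array (13.3%), so the size of this ratio rests on a dim signal. Mx1 was well above background in treated p53-/- MEFs alone, at 18.8%, which is at least 7.70-fold above treated WT MEFs. Set against the brightest negative control spot, Cmpk2 was higher by 1.47-fold in WT and 9.67-fold in p53-/- MEFs, and Mx1 by 1.41-fold over the untreated p53-/- array.

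The PARP family members of the set and the ligase Dtx3l, which pairs with Parp9, act through ADP-ribosylation and ubiquitylation of viral and host proteins. The genes Parp9, Dtx3l and Parp14 lie together on chromosome 16. All 4 were at least 2-fold higher with doxorubicin in p53-/- MEFs, and 1 of them (Parp14) in WT MEFs. Parp14 (chr16:35832992-35833051 of mm9, minus strand) was at 17.2% and 43.9% in WT and at 11.1% and 381% in p53-/- MEFs, log2 ratios of 1.35 and 5.10. Parp9 was at 38.6% and 73.2% in WT and at 37.3% and 311% in p53-/- MEFs. Dtx3l was at 29.6% and 53.5% in WT and at 26.7% and 282% in p53-/- MEFs. The pair thus had similar ratios, 1.90-fold and 1.81-fold in WT and 8.36-fold and 10.6-fold in p53-/- MEFs. Parp12 was at 27.3% and 27.1% in WT and at 32.7% and 122% in p53-/- MEFs, a WT log2 ratio of -0.01 whose sign turned with normexp background correction (0.01).

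Of the other ubiquitin ligases, Trim21, a cytosolic receptor for antibody-coated virus, was at 28.8% and 54.3% in WT and at 15.4% and 88.4% in p53-/- MEFs. Its larger ratio in p53-/- MEFs (2.52 against 0.91) came with a lower untreated signal, and the treated arrays were 1.63-fold apart. Rnf213, a very large ligase that coats intracellular pathogens, was at 7.46% and 22.9% in WT and at 9.19% and 64.3% in p53-/- MEFs.

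As for Trim21, a lower untreated signal in p53-/- MEFs came with the larger ratio of the exonuclease Isg20 and of the apoptosis-linked protein Xaf1. Isg20 was at 70.7% and 136% in WT and at 40.2% and 237% in p53-/- MEFs. Its dimmer probe gave ratios of 2.15-fold in WT and 6.55-fold in p53-/- MEFs, past 2-fold in both. Xaf1 was at 17.1% and 133% in WT and at 10.8% and 228% in p53-/- MEFs. For these genes, part of the larger p53-/- ratio was thus a lower untreated signal, and the treated arrays were 1.74-fold and 1.71-fold apart. Sp100, a protein of nuclear bodies, was at 4.56% and 7.01% in WT and at 4.71% and 8.82% in p53-/- MEFs, under 2-fold in both and close to the negative control spots. Phf11, whose probe is listed for the transcript now called Phf11a, was dim without the drug and was at 11.4% in treated WT and 52.0% in treated p53-/- MEFs.

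The last group holds induced genes with other or less settled roles. All 5 measured genes were at least 2-fold higher with doxorubicin in both genotypes. Ifi44 was at 5.79% and 32.4% in WT and at 4.94% and 174% in p53-/- MEFs. Rtp4, a receptor transporter, was at 22.9% and 89.9% in WT and at 25.7% and 719% in p53-/- MEFs. Their log2 ratios, 2.48 and 1.97 in WT against 5.14 and 4.81 in p53-/- MEFs, differed by 2.65 and 2.84.

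The other 3 differed less between genotypes. Ifi35 was at 81.8% and 317% in WT and at 65.1% and 367% in p53-/- MEFs. Lgals9, a secreted galectin, was at 119.6% and 456% in WT and at 111% and 394% in p53-/- MEFs, log2 ratios of 1.93 and 1.82. Lgals3bp, a secreted glycoprotein that binds galectins, was at 465% and 1622% in WT and at 261% and 1277% in p53-/- MEFs, with log2 ratios of 1.80 and 2.29. Its second probe gave 2.10 and 2.08. Epsti1 was between 0.756% and 1.11% on all arrays, never well above background.

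**Figure D3:**
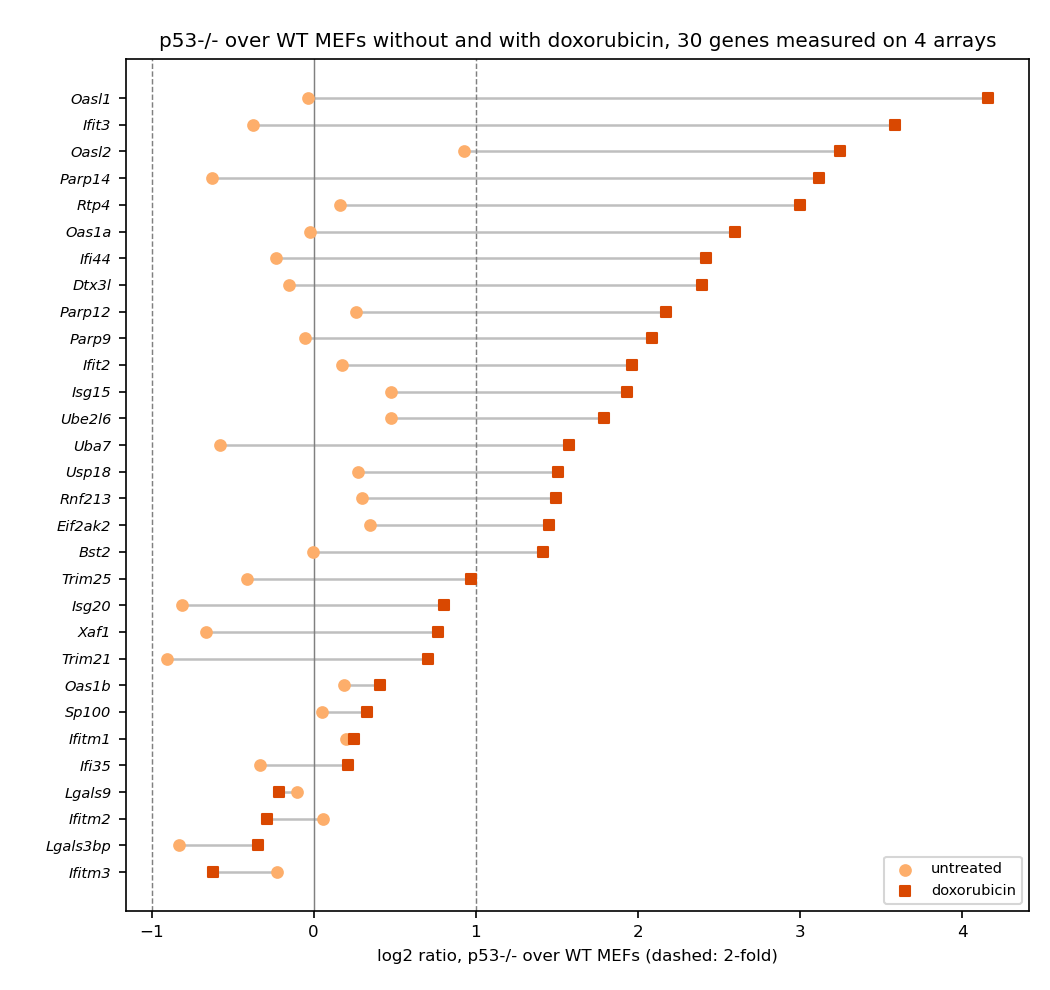
Log2 ratio of p53-/- over WT MEFs without (circles) and with doxorubicin (squares) for the 30 effector genes measured on all arrays, sorted by the treated ratio, with 1 array per condition and dashed lines at 2-fold. All circles lie between -0.90 and 0.93, and the squares run from -0.62 (Ifitm3) to 4.16 (Oasl1).

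Across the groups, 8 genes had ratios less than 2-fold apart between genotypes: Oas1b, Ifitm1, Ifitm2, Ifitm3, Sp100, Ifi35, Lgals3bp and Lgals9. Oas1b is among them by its brighter probe, while the dimmer probe, listed for its transcript, gave a difference of log2 ratios of 1.39. Of the 22 others, Trim25, Trim21, Isg20 and Xaf1 were under 2-fold apart between the treated arrays. Of the 30 genes measured on every array, Usp18, Parp14, Rnf213, Sp100, Xaf1 and Ifi44 lay below the brightest of 153 negative control spots (13.3%) in untreated p53-/- MEFs. So did Ifit1 and Mx2, which were not measured on every array. That limit was set by a few spots, since the fourth brightest was at 3.71%. In untreated WT MEFs, where that limit was 5.22%, Sp100 alone of the 30 genes lay below it. The p53-/- ratios of these genes therefore rest on dim untreated signals, while their treated signals lay above the limit of their arrays.

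The genes upstream of the effectors were read from lists of ligands, receptors, sensors, factors and inhibitors. Among the ligands, 15 of 19 listed genes were on the array and 5 were measured everywhere, 0 of them 2-fold higher or lower with doxorubicin in either genotype. All 5 (Ifna1, Ifna5, Ifna14, Ifnab and Il28b) lay below the brightest negative control spot in untreated p53-/- MEFs. Ifna5 and Ifnab did so in untreated WT MEFs too. At such dim signals, the ratios cannot show that the ligands were unchanged. Ifnb1, the interferon-beta gene, was not well above background in untreated WT (0.599%), treated WT (1.31%) or untreated p53-/- MEFs (0.640%), and stood at 13.9% in treated p53-/- MEFs. It was thus at least 4.51-fold above the untreated p53-/- array, but 1.05-fold above the brightest negative control spot there. Against the treated WT array, Ifnb1 was at least 5.70-fold higher, and 3.26-fold above the brightest negative control spot of that array. Several Ifna probes list the transcripts of more than 1 Ifna gene.

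Among receptors and kinases, 0 of 8 measured genes changed 2-fold in either genotype, with Ifnar1 at a log2 ratio of -0.69 in WT and -0.65 in p53-/- MEFs. Most genes did not either: 13780 of 17546 measured genes in WT and 14239 of 16978 in p53-/- MEFs were within 2-fold. Among the STAT and IRF factors, 1 of 7 in WT and 4 of 6 in p53-/- MEFs were at least 2-fold higher (11.0% and 9.24% of all measured genes). Stat2 was at 202% and 304% in WT and at 218% and 1193% in p53-/- MEFs, and its partner Irf9 was at 146% and 207% in WT and at 157% and 544% in p53-/- MEFs. Both were brightest in treated p53-/- MEFs. Irf7, which amplifies interferon production, was dim without the drug and was at 17.5% in treated WT and 124% in treated p53-/- MEFs. Irf1 gave a log2 ratio of -0.70 for WT and 1.61 for p53-/- MEFs, whereas Irf3, present in resting cells, had 0.16 in both.

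Of the nucleic acid sensors and adaptors, 1 of 5 in WT and 4 of 6 in p53-/- MEFs were at least 2-fold higher (11.0% and 9.24% of all measured genes). Ddx58 (RIG-I) was at 176% and 233% in WT and at 129% and 877% in p53-/- MEFs, and Ifih1 (MDA5) was at 26.1% and 94.4% in WT and at 22.0% and 227% in p53-/- MEFs. Zbp1, a sensor of Z-form nucleic acid, was at 8.37% in treated WT and 72.2% in treated p53-/- MEFs. The adaptor Mavs had log2 ratios of 0.16 and -0.18, and Tmem173 (STING) of -0.52 and 0.54. Of 5 feedback inhibitors, Socs1 gave a log2 ratio of 0.00 for WT and 1.41 for p53-/- MEFs, and Socs3, which mainly limits cytokine receptors of the IL-6 type, of -1.93 and -0.27.

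The 3 genes whose names differ in the array annotation were found through the RefSeq accession of their probes. The brighter Herc6 probe, named Herc5 in the annotation, was at 12.6% and 10.9% in WT and at 11.2% and 32.3% in p53-/- MEFs, log2 ratios of -0.21 and 1.53. Another Herc6 probe was well above background in treated p53-/- MEFs alone, at 21.6%, which is at least 8.88-fold above treated WT MEFs. The Trim30a probe, named Trim30, was dim without the drug and was at 9.98% in treated WT and 47.3% in treated p53-/- MEFs. The Ifi27 probe, named Ifi27l1, was at 987% and 1481% in WT and at 434% and 711% in p53-/- MEFs, log2 ratios of 0.59 and 0.71. Its signal was thus more than 2-fold lower in p53-/- than in WT MEFs with and without the drug, unlike the genes above.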

How the data were processed

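RNA of WT and p53-/- MEFs, without and with doxorubicin, was labeled with Cy3 by the authors (200 ng per sample) and hybridized to Agilent mouse arrays, 1 per condition. The deposited intensity of each spot came from Feature Extraction (10.7.3.1, per the file headers), which subtracted the background and corrected spatial trends, and was not normalized between arrays. The deposited flags, other values coded 0 or 1, mark spots well above background, saturated or outlying. The authors' table of intensities for the series was equal to these at all 44397 spots. Fold changes that the study made with the Subio Platform were not used here.

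Outlier spots (145 to 168 per array) and controls were left out, 0 spots were saturated, and spots of a probe were averaged. The log2 intensity was taken minus the 75th percentile of the array over 39429 probes. Of several probes of a gene, the one brightest on average stood for it. Where 1 array was dim, the bound used the higher of the lowest signal called well above background on that array (2.44% to 3.60% of the 75th percentile) and the probe's own signal. Precision is limited by the number of arrays, and no test was made. Coordinates of probes are mm9, per the files, and exons were not analysed here. Promoters are from RefSeq (GRCm38.p6).

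The members and all lists were chosen with earlier results of these data known. Every member was named, and beyond them only genes of the lists, some of which are not reported here one by one. Alternatives were the array median as scale, quantile normalization, normexp (limma 3.58.1 in R 4.3.3, offset 50), other filters on dim probes, averaging over the probes of a gene, the deposited table, and thresholds of 1.5-fold and 3-fold. Naming members by accession was added after the data were seen. The steps were tested on simulated data. Python 3.11.15, numpy 2.4.6, pandas 2.3.3 and matplotlib 3.10.9 were used.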

Additional observations from a re-analysis of the deposited data

Results flagged for a closer look

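3 effector genes moved in opposite directions with doxorubicin in the 2 genotypes by more than 0.23 on the log2 scale, which is 2 SD of a ratio between repeat spots. The difference of log2 ratios, p53-/- minus WT, was 1.79 for Ifit2, 4.19 for Oasl1 and 2.15 for Uba7, from WT ratios of -0.51, -0.55 and -0.39 and p53-/- ratios of 1.27, 3.64 and 1.76. The limit covers the spread between spots and leaves out differences between arrays. How many of all genes meet the same rule was not counted. With 1 array per condition, these differences were not tested.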

How the results depend on the processing

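The ratios rest on 4 single arrays, and dim untreated probes left 6 genes in WT and 5 in p53-/- MEFs with a lower bound in place of a ratio. No paired analysis was possible because each group has 1 array. The medians of the doxorubicin ratios, of their difference and between treated genotypes were above 0 under every alternative, whereas the median between untreated genotypes, -0.03, was 0.03 with no filter on dim probes. 0 members changed side of 2-fold for the difference of log2 ratios. The median WT log2 ratio moved from 1.21 to 0.94 with scaling to the array median, 1.07 with normexp, 1.34 with no filter on dim probes and 1.04 with members named by accession. The median p53-/- ratio moved from 2.68 to 2.38 with scaling to the array median, 2.41 with normexp, 2.93 with no filter, 2.54 both with genes measured on all 4 arrays and by accession, 2.39 above the brightest negative control and 2.80 with the mean of probes. Under scaling to the array median, the median over all genes was itself -0.27 for WT and -0.30 for p53-/- MEFs. Between untreated genotypes, the count of genes past 2-fold went from 0 to 5 with no filter, 1 by accession (Ifi27) and 6 at 1.5-fold. Between treated genotypes, the median moved from 1.86 to 1.69 with normexp and 1.5 with genes measured on all 4 arrays. The median difference moved from 1.45 to 1.61 with no filter, and 14 of 22 genes passed 3-fold. Calls near 2-fold changed side for Ifit3 (array median) and Isg20 (mean of probes) in WT, for Ifit2 (array median), Ifitm3 (quantile) and Oas1b (mean of probes) in p53-/- MEFs, and for Trim25 (quantile) and Oas1b (mean of probes) between treated genotypes. Signs turned only for ratios near 0: Ube2l6 and Parp12 in WT (-0.04 and 0.01), Ifitm2 in p53-/- MEFs (-0.27), and Sp100, Bst2 and Oas1a between untreated genotypes. The cause was not tested.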
